A study of Mus musculus with 3 samples.

Results

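Ribosomal protein genes were followed across the cells of 3 TH-MYCN mouse neuroblastomas. Members were the gene symbols of the raw matrices that start with Rpl or Rps and a digit, together with Rplp0, Rplp1, Rplp2 and Rpsa. From 105 symbols that start in this way, 9 pseudogenes by name, 10 S6 kinases, Rps19bp1 and the retrogene Rps27rt were left out. This left 84 of 31053 symbols, 52 for the large and 32 for the small ribosomal subunit, and each of the 84 has an entry in GENCODE M21 (mouse build GRCm38), on 19 chromosomes in all.

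The tumors came from 3 mice, 1 tumor per mouse, each taken whole. The mouse of tumor 1 was 62 days old, that of tumor 2 was 79 and that of tumor 3 was 63. Every mouse was heterozygous for the TH-MYCN transgene, in which the tyrosine hydroxylase promoter drives MYCN in sympathetic precursor cells, so the samples form a single group without a control. Cells were dissociated and captured with the 10x Genomics 3′ v3.1 kit, which tags each captured molecule with a unique molecular identifier (UMI). Comparisons were therefore made between cell classes within the tumors.

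Each cytoplasmic ribosome holds a small subunit that reads the message and a large subunit that forms the peptide bond, and most of the proteins in both are encoded by a single active gene. Messages of these genes commonly begin with a run of pyrimidines, the 5′ terminal oligopyrimidine tract, through which growth signals control their translation together. MYC family factors, MYCN among them, are known to raise ribosome production in tumor cells, while mature neutrophils are known for low protein synthesis. A few ribosomal proteins have paralogs with tissue-restricted expression, such as Rpl3l, known from striated muscle, and Rpl10l and Rpl39l, known from the testis.

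Start-site sequences are shown for Rps27 and Rps27l, whose levels differed in opposite directions between lymphocytes and tumor-like cells of tumor 1, and for Rpl22l1, the paralog with the most UMIs. Each runs 5′ to 3′ on the coding strand from 50 bases before the RefSeq start, on GRCm38.p6, and capitals mark the longest run of C and T near that start.
Rps27 (chr3:90213619-90213698, minus strand): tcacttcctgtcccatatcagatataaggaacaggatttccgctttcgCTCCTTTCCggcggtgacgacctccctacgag
Rps27l (chr9:66946036-66946115, plus strand): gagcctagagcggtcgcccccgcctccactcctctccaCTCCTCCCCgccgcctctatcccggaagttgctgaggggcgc
Rpl22l1 (chr3:28805458-28805537, plus strand): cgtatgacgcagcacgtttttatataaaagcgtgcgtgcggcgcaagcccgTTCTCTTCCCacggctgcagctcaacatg
The run covers 9 bases and crosses the start in Rps27, whereas the run of 9 bases in Rps27l lies before it. In Rpl22l1 the run covers 10 bases just after the start.

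RefSeq windows from 250 bases before to 50 bases after a start were at hand for 64 of the 84 genes, in 76 windows. A C at the start base followed by 4 further pyrimidines was found in 13 of these 76 windows, or 17.1%, and in 2.51% of all 32851 windows. Allowing that run to begin within 3 bases of the start gave 34.2% of the windows of ribosomal protein genes and 11.5% of all windows. The letters CCGGAAG, on either strand, were found in 35.5% and 8.86%. These matches describe the windows only.

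Barcodes present in the deposited normalized matrices were taken as kept cells, 1914, 1221 and 2515 in tumors 1, 2 and 3, with medians of 4282.5, 1594 and 1816 raw UMIs. Clustering without any ribosomal protein gene gave 22 clusters, of which all but 1 were named from markers, in 12 classes. Tumor-like cells numbered 3424, macrophage-like 850, neutrophil-like 312, B cell-like 243 and T cell-like 220, and these 5 are called the main classes below. The 172 cells of the remaining cluster, led by Ighg2b and Fcrl5, stayed without a name. That cluster had 8 macrophage-like markers, but its depth was low and none of them was among its leading genes. Tumors 1 and 2 shared 3 kept barcodes, tumors 2 and 3 shared 1, and tumors 1 and 3 shared 0.

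Tumor RNA was found in the other classes of tumors 2 and 3. The summed level of the 12 tumor-like markers in the 10 other classes of tumor 1 was 0.738% to 7.66% of that in its tumor-like cells. In the 6 other classes of tumor 2 it was 20.6% to 58.4%, and in the 8 of tumor 3 it was 31.9% to 81.3%. In the counts behind the authors' normalized values, which are adjusted towards a common depth per cell, the ranges were 0.401% to 11.2%, 25.9% to 51.0% and 17.8% to 71.0%. Tumor 1 thus stands apart from the other tumors, and values are given per tumor.

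Ribosomal protein genes gave 19.1%, 21.2% and 21.4% of the UMIs of kept cells in tumors 1, 2 and 3. Among the main classes the share was lowest in neutrophil-like cells in every tumor. It was highest in lymphocytes in tumor 1 and in tumor-like cells in tumor 3, and the spread was widest in tumor 1. In tumor 2, B cell-like, tumor-like and T cell-like cells lay close together, at 23.5%, 23.4% and 23.3%. The main classes ran from 4.93% to 31.8% in tumor 1, a ratio of 6.46, from 14.7% to 23.5% in tumor 2, a ratio of 1.6, and from 15.8% to 22.7% in tumor 3, a ratio of 1.44.

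**Figure D1:**
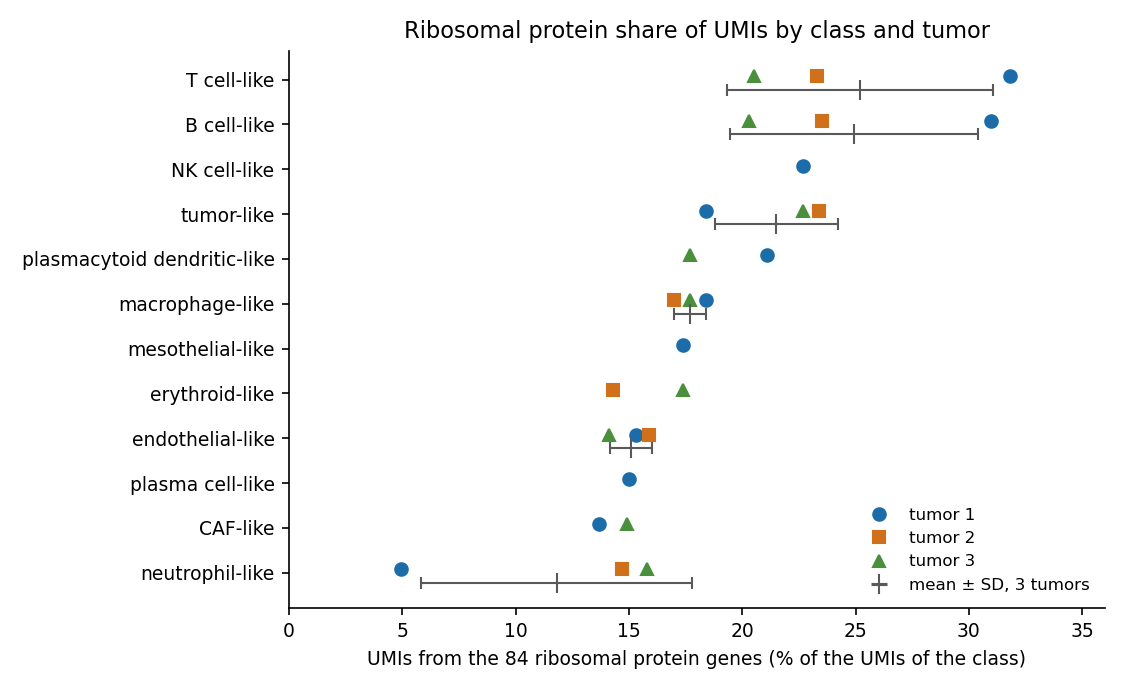
Share of UMIs from the 84 ribosomal protein genes (x axis, % of the UMIs summed over the cells of a class) in each class (y axis) and tumor (points), for sums of at least 10 cells, with the mean and SD where 3 tumors gave a value. T cell-like and B cell-like cells of tumor 1 reach 31.8% and 31.0%, and neutrophil-like cells of tumor 1 lie at 4.93%.

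Neutrophil-like cells, led by Ngp, S100a8 and S100a9, held 4.93% ribosomal protein UMIs in tumor 1, 14.7% in tumor 2 and 15.8% in tumor 3 (mean 11.8% ± 5.98, SD, n = 3). Exact 95% binomial intervals were 4.88% to 4.98%, 14.5% to 14.9% and 15.4% to 16.1%, and these intervals cover counting error only. The single cells showed the same gap, since the middle 50% of the 236 cells of tumor 1 spanned 3.78% to 6.03%, whereas those of the 54 cells of tumor 2 spanned 12.7% to 18.8%. Tumor-like markers stood at 2.21%, 33.6% and 43.2% of their level in tumor-like cells in these 3 sums, neutrophil markers at 158000, 153000 and 46400 CPM (counts scaled to a fixed total per sum), and their part in the result was not tested.

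T cell-like cells held 31.8%, 23.3% and 20.5% in tumors 1, 2 and 3 (25.2% ± 5.88, n = 3). B cell-like cells, led by Ms4a1 and Ighd, held 31.0%, 23.5% and 20.3% (25% ± 5.50, n = 3). Both lymphocyte classes were thus highest in tumor 1, and in tumors 2 and 3 they lay within 2.37 percentage points of tumor-like cells. Beside these shares, tumor-like markers stood at 4.65%, 47.3% and 81.3% of the tumor-like level in T cell-like cells and at 2.46%, 58.4% and 70.9% in B cell-like cells, and their part was not tested. In T cell-like cells, the marker Gata3 alone gave 86.3 of 131 marker CPM in tumor 1. It gave 85.3 of 1490 in tumor 2 and 43.7 of 2700 in tumor 3. The sums of tumors 2 and 3 rest on 46 and 62 T cell-like and on 15 and 26 B cell-like cells.

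Tumor-like cells held 18.4%, 23.4% and 22.7% (21.5% ± 2.70, n = 3). Tumor 1 was the lowest of the 3, with 393 tumor-like cells at a median depth of 925 UMIs against 934 and 2097 cells at 1549 and 1812 UMIs. Macrophage-like cells varied least among the tumors, at 18.4%, 17% and 17.7% (17.7% ± 0.718, n = 3). Tumor-like minus macrophage-like cells gave -0.0302, 6.39 and 4.97 percentage points in tumors 1, 2 and 3.

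Of 10 pairs of main classes, neutrophil-like cells were below each of the other 4 in 3 of 3 tumors, by a mean of 5.90 to 13.4 percentage points. Macrophage-like minus T cell-like cells gave -13.4, -6.34 and -2.81 points, and macrophage-like minus B cell-like cells -12.6, -6.55 and -2.6 points, lower in 3 of 3 tumors in both. With 3 tumors, an exact two-sided sign-flip permutation test cannot go below p = 0.25, and these 6 pairs gave that value (adjusted over 10 pairs, p = 0.417). Tumor-like cells against T cell-like cells differed in sign among tumors, at -13.4, 0.0496 and 2.16 points (exact sign-flip permutation p = 1), and T cell-like and B cell-like cells lay within 0.792 points of each other in every tumor.

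**Figure D2:**
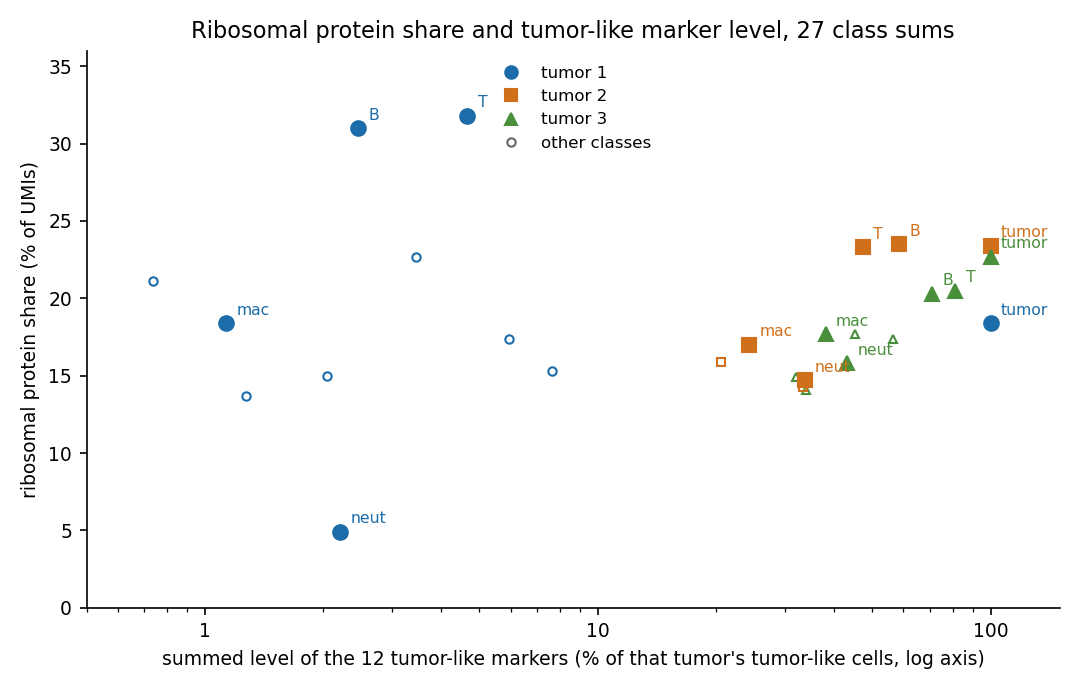
Ribosomal protein share (y axis, % of UMIs) against the summed level of the 12 tumor-like markers (x axis, % of the level in tumor-like cells of the same tumor, log axis) for 27 sums of a class and tumor. The sums of tumor 1 other than tumor-like lie between 0.738% and 7.66% on the x axis, those of tumors 2 and 3 between 20.6% and 81.3%, and the y values of the main classes spread most in tumor 1.

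Among the rarer classes, NK cell-like cells of tumor 1 held 22.7%, plasmacytoid dendritic-like cells 21.1% in tumor 1 and 17.7% in tumor 3, and mesothelial-like cells of tumor 1 17.4%. Endothelial-like cells held 15.3%, 15.9% and 14.1% (15.1% ± 0.930, n = 3), and CAF-like cells 13.7% in tumor 1 and 14.9% in tumor 3. Erythroid-like cells held 14.3% in tumor 2 and 17.4% in tumor 3. Plasma cell-like cells, which secrete antibody in large amounts, held 15.0% over all their UMIs, and the median of their 21 cells was 21%.

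Classes were not uniform inside. Of the macrophage-like clusters, the one led by F13a1 held 22.4%, 18.8% and 20% in tumors 1, 2 and 3, and the one led by C1qa, C1qb and C1qc held 16.5%, 13.3% and 16.1%. The cluster led by Cd300e held 15.4%, 17.7% and 16.4%. The cluster led by Cd5l and Mmp12 held 14.0%, 23.5% and 21.6%. It was thus the lowest of these clusters in tumor 1 and the highest in tumors 2 and 3. Its median depth was 1344 UMIs, against 5697, 10847 and 11813 in the clusters led by Cd300e, F13a1 and C1qa. Across macrophage-like cells, the ribosomal protein share and the UMI total had Spearman correlations of 0.384, -0.749 and -0.531 over 591, 84 and 175 cells. The part of depth was not tested. The largest cluster of the class differed among tumors: the cluster led by Cd300e gave 273 of the 591 macrophage-like cells of tumor 1, and the one led by Cd5l gave 35 of 84 in tumor 2 and 71 of 175 in tumor 3.

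Within tumor-like cells, the cluster led by C130073E24Rik, Pde10a and Epha5 had the lowest share in tumors 2 and 3, 18.1% and 15.7%, and held 17.3% in the 16 cells of tumor 1. The largest tumor-like cluster, led by Cited1, held 20.7%, 25.6% and 24.1%, and the cluster led by Nefl and Mycn 20.1%, 24.7% and 24.4%. The cluster led by Chga and Kif5c held 12.4% in tumor 1, 23.8% in tumor 2 and 21.6% in tumor 3. Median mitochondrial shares were 8.83% in the cluster led by C130073E24Rik and 9.21% in the one led by Chga, against 0.955% in that led by Cited1, and their part was not tested. Across single tumor-like cells, the ribosomal protein share and the mitochondrial share had Spearman correlations of -0.446, -0.459 and -0.495 over 393, 934 and 2097 cells, and both are parts of the same total.

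The large and small subunit genes moved together. In tumor-like cells the large subunit genes gave 10.3%, 12.8% and 12.7% of UMIs and the small subunit genes 8.09%, 10.5% and 10.0%. Their ratio was 1.02 in neutrophil-like cells of tumor 1, 1.11 and 1.13 in B cell-like and T cell-like cells of tumor 1, and 1.15 to 1.27 in the other sums of the main classes.

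Gene by gene, the members were set against tumor-like cells of the same tumor, as the log2 ratio of CPM, for members with at least 20 UMIs in both sums together. In neutrophil-like cells of tumor 1, 80 of 82 members lay below tumor-like cells, with a median log2 ratio of -2.20. The median was -0.709 in tumor 2 and -0.537 in tumor 3, with 80 and 78 of 81 members below. The direction was thus shared by nearly all members, and its size differed among tumors. The same counts over all genes are not given, and these CPM are scaled by total UMIs. With that scaling, the median of all genes in neutrophil-like cells against the mean of the other classes was -0.35. How far the direction is particular to the members is thus not shown.

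In T cell-like cells of tumor 1, 75 of 81 members lay above tumor-like cells, with a median of 0.707, and in B cell-like cells 73 of 81, with a median of 0.634. In tumor 2 the medians were 0.0100 and -0.00205, and in tumor 3 they were -0.149 and -0.185, with 9 and 14 of 81 members above. Members in lymphocytes thus lay clearly above tumor-like cells in tumor 1 only, and here too the counts over all genes are not given. Macrophage-like cells gave medians of -0.0890, -0.513 and -0.411.

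**Figure D3:**
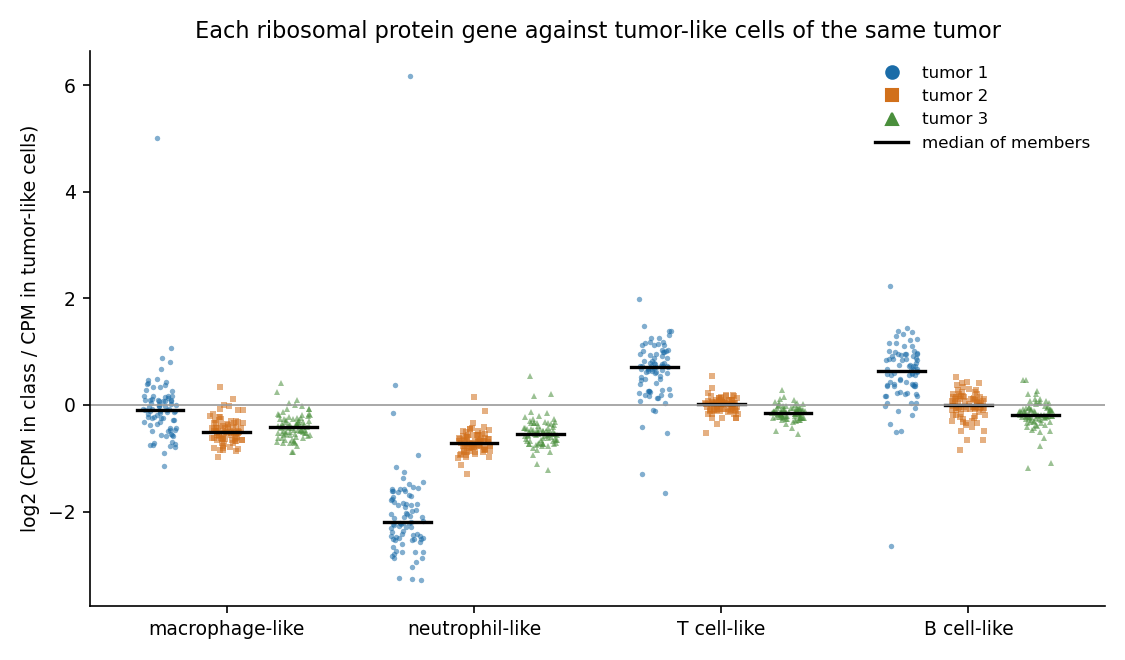
Log2 ratio of the CPM of each ribosomal protein gene in a class to its CPM in tumor-like cells of the same tumor (y axis), by class (x axis) and tumor (colors), with the median over genes as a black line. Neutrophil-like cells of tumor 1 have a median of -2.20, and the lone high points of tumor 1 in macrophage-like and neutrophil-like cells are Rpl3l, which had 0 UMIs in tumor-like cells of tumor 1, so that its position is set by the 0.5 added count.

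Sums per class and tumor were then compared with edgeR's quasi-likelihood test, each main class against the mean of the other classes with the tumor as a block, over 7312 genes, of which 81 were members. Rpl10l, Rpl39l and Rpl3l were too low to be tested. Few members passed an adjusted p of 0.05. In tumor-like cells 0 members were called higher and 0 lower, where 12.3% and 4.09% of all genes were called. At an unadjusted p under 0.05 the counts were also 0 and 0, beside 1500 higher and 496 lower of all genes. DESeq2 called 0 members in either direction. Among all genes, the calls of edgeR were 901 higher and 299 lower, and those of DESeq2 454 higher and 2051 lower. With total UMIs in place of scaling factors, edgeR gave 1966 higher and 223 lower.

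In macrophage-like cells 1 member was higher and 0 lower, against 19.2% and 0.602% of all genes. The member was Rps29, a zinc-binding protein of the small subunit. Rps29 stood at 8390, 5460 and 4050 CPM in macrophage-like cells of tumors 1, 2 and 3, at 4030, 4310 and 3030 in tumor-like cells and at 2100, 3430 and 2510 in neutrophil-like cells. Macrophage-like cells were thus above both in every tumor, while T cell-like cells of tumor 1 reached 11300 CPM. Its log2 fold change was 0.77 (SE 0.27, edgeR adjusted p = 0.048, higher in 3 of 3 tumors). The call ended without tumor 2 (0.96, adjusted p = 0.084), without tumor 3 (0.75, adjusted p = 0.55) and with sums scaled by total UMIs (0.56, adjusted p = 0.20). It also ended with DESeq2, without the replicate block, at resolution 0.5 and with the unnamed cluster put back, and the value ranged from 0.56 to 0.96 over the alternatives. Without tumor 1, macrophage-like cells had 5 members higher.

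In neutrophil-like cells 1 member was higher and 1 lower, against 23.1% and 1.52% of all genes. Rpl6, of the large subunit, stood at 480, 1930 and 1700 CPM in neutrophil-like cells, at 3230, 3590 and 3270 in tumor-like cells and at 2400, 2340 and 2200 in macrophage-like cells. The neutrophil-like value was the lowest of the 3 in every tumor. Its log2 fold change was -0.69 (SE 0.25, edgeR adjusted p = 0.046, lower in 3 of 3 tumors), and it was -0.44 without tumor 1 (adjusted p = 0.086) and -0.91 without tumor 3 (adjusted p = 0.41). The call also ended without the low-count filter, without the replicate block and with the unnamed cluster put back.

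Rps9, of the small subunit, held its level in neutrophil-like cells of tumor 1, where nearly all other members were low. It stood at 3290, 2980 and 3070 CPM in neutrophil-like cells, at 2540, 2680 and 2660 in tumor-like cells and at 4080, 2500 and 2860 in macrophage-like cells. T cell-like cells had 4230, 2790 and 2540 CPM and B cell-like cells 4610, 3240 and 2430. The neutrophil-like level was thus below both lymphocyte classes in tumor 1 and below B cell-like cells in tumor 2. Of the ribosomal protein UMIs of neutrophil-like cells in tumor 1 Rps9 gave 6.67%, and of those of T cell-like cells, the lowest main class there, 1.33%. Its log2 fold change was 0.73 (SE 0.25, edgeR adjusted p = 0.033, higher in 3 of 3 tumors), 0.41 without tumor 1 (adjusted p = 0.082), 0.37 without tumor 2 (adjusted p = 0.71) and 0.70 without tumor 3 (adjusted p = 0.53). Scaled by total UMIs it was 0.22 (adjusted p = 0.59), and the range over all alternatives was 0.22 to 0.91. The call also ended without the low-count filter, without the replicate block, at resolution 0.5 and with the unnamed cluster put back.

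The count of calls in neutrophil-like cells changed with the scaling. The factors of the trimmed mean of M values (TMM), which balance the bulk of genes between sums, ranged from 0.388 for neutrophil-like cells of tumor 1 to 1.48 for B cell-like cells of tumor 2. Without them, 21 of 81 members were lower in neutrophil-like cells and 0 higher, and the calls over all genes moved from 1686 higher and 111 lower to 1043 higher and 534 lower. The 21 had log2 fold changes of -1.17 to -0.79 and included Rpl6 (-1.04, edgeR adjusted p = 0.012), Rpl36al (-1.02, adjusted p = 0.032), Rpsa (-0.95, adjusted p = 0.039), Rpl7 (-0.90, adjusted p = 0.038) and the stalk base Rplp0 (-0.85, adjusted p = 0.037). The median of all genes moved from 0.30 to -0.35. Relative to it the median member lay at -0.74 with TMM factors and at -0.43 without, and between -0.99 and -0.27 over all alternatives. The count without tumor 2 was 8 lower, and without tumor 1 or tumor 3 it was 0.

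In T cell-like cells 0 members passed in either direction, against 3.68% and 0.520% of all genes, while 81 of 81 had a positive log2 fold change with a median of 0.51 (all genes 0.15). Unadjusted, 36 of the 81 had p under 0.05, all of them higher, beside 766 higher and 196 lower of all 7312 genes. DESeq2 called 0 members. B cell-like cells also gave 0 and 0 calls, against 3.42% and 0.875%. There 79 of 81 members were positive with a median of 0.38 (all genes -0.03). In these cells 11 of the 81 had an unadjusted p under 0.05, all higher, beside 625 higher and 355 lower of all 7312 genes. DESeq2 called 2 members higher, beside 190 of all genes. Without tumor 1 the median of the members lay 0.04 above that of all genes in T cell-like cells and 0.11 above it in B cell-like cells, against 0.36 and 0.41 with it.

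**Figure D4:**
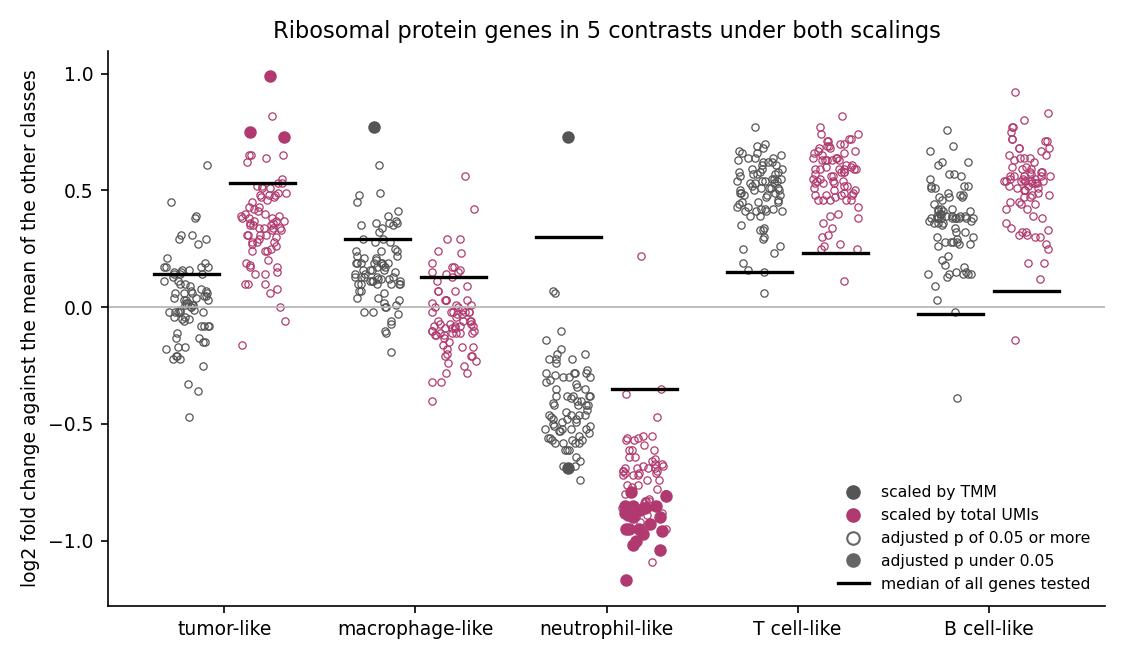
Log2 fold change of the 81 tested ribosomal protein genes against the mean of the other classes (y axis) in the 5 main classes (x axis), with sums scaled by TMM factors or by total UMIs (colors), filled where the adjusted p is under 0.05, and the median of all genes tested as a black line. In neutrophil-like cells 2 points are filled with TMM factors and 21 with total UMIs, and in T cell-like cells the members lie mostly above the line under both scalings.

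The stalk proteins Rplp0, Rplp1 and Rplp2 recruit translation factors to the large subunit, and Rpsa belongs to the small subunit and also acts as a laminin receptor. Rplp1 stood at 9190, 4500 and 3930 CPM in T cell-like cells of tumors 1, 2 and 3, at 3510, 3850 and 4270 in tumor-like cells and at 1290, 2350 and 3050 in neutrophil-like cells. Rpsa stood at 6480, 4770 and 4130 CPM in T cell-like cells, at 3970, 4640 and 4530 in tumor-like cells and at 514, 2610 and 2670 in neutrophil-like cells. Among the main classes, neutrophil-like cells had the lowest level of both in all tumors. Rpsa had the highest log2 fold change of the 4 in T cell-like cells, 0.69 (SE 0.25, edgeR adjusted p = 0.16, higher in 3 of 3 tumors), and none of the 4 passed in a main class.

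Among the members with the highest mean CPM over classes were Rpl41 (5080), Rps29 (4840), Rpl13 (4290) and Rps24 (4210). Each of these had its lowest level in neutrophil-like cells of tumor 1, at 1500, 2100, 697 and 1030 CPM. The lowest 5 among members with a UMI were Rpl39l, Rpl10l, Rpl3l, Rpl7l1 and Rpl29, and the next was Rpl13a. Since a 3′ tag counts molecules, CPM is not divided by length here, and the reads of Rpl29 and Rpl13a may be shared with near-identical copies, of which the annotation names 294 pseudogenes for Rpl and Rps genes. Counts for such genes are uncertain.

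Of 8 paralog pairs sought, 7 were listed in the files. Rps27l, a copy of Rps27 known as a target of p53, was the member whose share of the ribosomal protein pool differed most between the main classes of tumor 1. It stood at 457, 808 and 887 CPM in tumor-like cells of tumors 1, 2 and 3, at 72.3, 879 and 742 in B cell-like cells, at 145, 768 and 797 in T cell-like cells and at 62.2, 442 and 650 in neutrophil-like cells. In tumor 1 the tumor-like level was thus above the lymphocytes and neutrophil-like cells, while in tumors 2 and 3 lymphocytes and tumor-like cells lay close together. Tumor-like markers were at 2.46%, 58.4% and 70.9% of the tumor-like level in the B cell-like sums, and their part was not tested.

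Rps27, the canonical gene, was higher in lymphocytes than in tumor-like cells of tumor 1, where Rps27l was lower. In tumors 2 and 3 both genes moved the same way in B cell-like cells. Rps27 stood at 10700, 2880 and 1440 CPM in B cell-like cells, at 9010, 2270 and 1490 in T cell-like cells and at 2260, 2000 and 1550 in tumor-like cells. Rps27l thus gave 0.671%, 23.4% and 34.1% of the UMIs of the pair in B cell-like cells and 16.8%, 28.7% and 36.4% in tumor-like cells. In edgeR, Rps27l in tumor-like cells had a log2 fold change of 0.45 (SE 0.29, adjusted p = 0.37, higher in 3 of 3 tumors), and Rps27 in B cell-like cells 0.76 (SE 0.32, adjusted p = 0.27, higher in 3 of 3 tumors). Neither passed, and Rps27l in B cell-like cells went from -0.39 to 0.24 without tumor 1. Reads of Rps27 may be shared with the retrogene Rps27rt, which took 1966, 169 and 567 UMIs against 56584, 5513 and 8226 for Rps27.

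**Figure D5:**
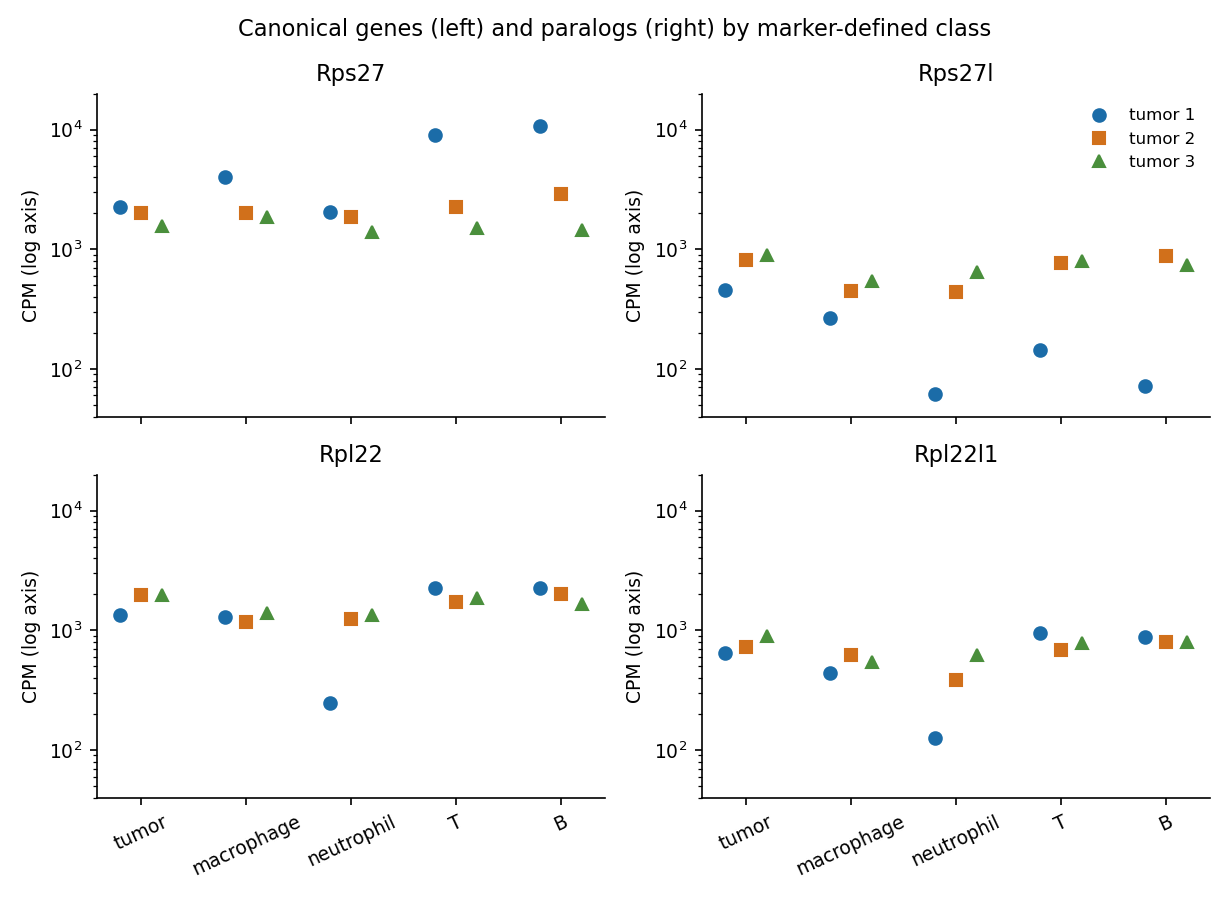
CPM (y axis, log axis) of the canonical genes Rps27 and Rpl22 (left) and their paralogs Rps27l and Rpl22l1 (right) in the 5 main classes (x axis) by tumor (colors). Rps27 reaches 10700 and 9010 CPM in B cell-like and T cell-like cells of tumor 1, where Rps27l lies at 72.3 and 145.

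Rpl22l1, a copy of Rpl22, gave 23.6% to 34.6% of the UMIs of the pair over the main classes and tumors, and 14.2% (plasma cell-like, tumor 1) to 43.8% (erythroid-like, tumor 3, 21 UMIs) over all sums. It gave 32.5%, 27% and 31.3% of the UMIs of the pair in tumor-like cells, 28.2%, 28.6% and 32.3% in B cell-like cells and 33.7%, 23.6% and 31.8% in neutrophil-like cells. Levels of both genes fell in neutrophil-like cells of tumor 1, to 126 CPM for Rpl22l1 and 248 CPM for Rpl22, against 651 and 1350 in tumor-like cells. Neither was called in tumor-like cells (log2 fold changes of 0.07 and 0.15, which DESeq2 turned to -0.28 and -0.19).

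Rpl36al, a retrocopy of Rpl36a, varied with both class and tumor. In tumor 1 its share of the pair ran from 18.3% in T cell-like cells to 55.1% in plasma cell-like cells, with 283 UMIs in the latter. Its share of the pair was 27.1%, 16.5% and 30.1% in tumor-like cells, 37.0%, 16.4% and 32.8% in macrophage-like cells and 28.1%, 14.1% and 40% in neutrophil-like cells of tumors 1, 2 and 3. Tumor 2 was the lowest of the 3 in these classes. In T cell-like cells the shares were 18.3%, 17.8% and 35.3%, and in B cell-like cells 19.3%, 25.6% and 45.3%, the last 2 from 10 and 34 UMIs of Rpl36al. Rpl7l1, a protein of ribosome assembly related to Rpl7, gave 5.31%, 7.72% and 5.72% of its pair in tumor-like cells and stood there at 106, 156 and 130 CPM. Its log2 fold change in tumor-like cells was 0.61 (SE 0.33, edgeR adjusted p = 0.24, higher in 3 of 3 tumors), 0.85 without tumor 1 (adjusted p = 0.019) and 0.99 with total UMIs (adjusted p = 0.04).

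Rpl3l was found mainly in neutrophil-like, macrophage-like and plasmacytoid dendritic-like cells of tumor 1. In neutrophil-like cells it had 38, 3 and 0 UMIs in tumors 1, 2 and 3, or 53.8, 22.5 and 0 CPM. In tumor 1, 30 of 236 neutrophil-like cells, 12.7%, held a UMI (exact 95% interval 8.74% to 17.6%, median depth 2608 UMIs), as did 91 of 591 macrophage-like cells, 15.4% (12.6% to 18.6%, median depth 8648), and 25 of 90 plasmacytoid dendritic-like cells, 27.8% (18.9% to 38.2%, median depth 10952). No UMI was seen in the 202 B cell-like cells of tumor 1 (exact 95% upper limit 1.81%, median depth 4382.5). None was seen in its 393 tumor-like cells either (upper limit 0.934%, median depth 925). These limits are on cells with a UMI, not on cells that express the gene, and at such depths a low message is often missed. Beside Rpl3, at 256 CPM in neutrophil-like cells of tumor 1, the paralog gave 17.4% of the UMIs of the pair. Macrophage-like cells of tumors 2 and 3 had 1 and 2 UMIs. These are values of 1 library with no replicate of the same size.

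Rpl39l had 4 UMIs in the class sums and Rpl10l had 1. Their partners Rpl39 and Rpl10 had 62064 and 29314. Rpl39 stood at 6190 CPM in T cell-like and 5980 in B cell-like cells of tumor 1 against 2360 in tumor-like cells.

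Within the pool of ribosomal protein UMIs, the composition differed little between the main classes of tumors 2 and 3. Of members with at least 20 UMIs in each main class, all 75 in tumor 2 and 73 of 75 in tumor 3 differed less than 2-fold in their share of the pool between the highest and the lowest main class. In tumor 1 this held for 67 of 80. The 13 others in tumor 1 were led by Rps27l, with 0.0233% of the pool in B cell-like and 0.248% in tumor-like cells, a ratio of 10.7, then Rps9 with a ratio of 5.02 and Rps27 with 3.36. Rpl13a, a large subunit protein, gave 0.121% in neutrophil-like and 0.320% in tumor-like cells. Tumor-like markers in the other classes stood at 0.738% to 7.66% of the tumor-like level in tumor 1. They stood at 20.6% to 58.4% in tumor 2 and 31.9% to 81.3% in tumor 3, and their part was not tested.

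Fau, which encodes a small subunit protein fused to a ubiquitin-like domain, and Rack1, a scaffold protein bound to the small subunit, have symbols outside the rule. Fau stood in neutrophil-like cells at 3720, 3620 and 3250 CPM against 2340, 2530 and 2780 in tumor-like cells. In the counts behind the normalized values the order turned in tumor 1, at 4650 CPM in neutrophil-like and 4850 in tumor-like cells. Rack1 stood at 257, 1010 and 1700 CPM against 1930, 2130 and 2380. Fau in neutrophil-like cells had a log2 fold change of 0.78 (SE 0.28, edgeR adjusted p = 0.038), but set against the mean of the other classes by CPM it was higher in 2 of 3 tumors. The call ended with total UMIs (0.30, adjusted p = 0.47), without tumor 2 (0.32, adjusted p = 0.86) and without tumor 3 (0.79, adjusted p = 0.43), and in most other alternatives.

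Other genes of protein synthesis were counted in the same fit. Of 72 tested mitochondrial ribosomal protein genes, whose products serve translation inside mitochondria, 12 were higher and 0 lower in tumor-like cells, or 16.7% beside 12.3% of all genes, with a median log2 fold change of 0.53 beside 0.14 for all genes and 0.03 for the cytoplasmic members. They included Mrpl12 (1.10, SE 0.25, edgeR adjusted p = 0.0043) and Mrps22 (1.38, SE 0.37, adjusted p = 0.011). Without the replicate block, 1 of 7312 genes was higher in tumor-like cells. In neutrophil-like cells 1 of the 72 was higher, Mrpl33 (1.94, SE 0.27, edgeR adjusted p = 2e-06), and 0 lower, where 23.1% of all genes were higher. Macrophage-like cells also gave 1 higher, Mrpl52, and T cell-like and B cell-like cells 0.

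Of 24 initiation factors, 3 were higher in tumor-like cells, Eif3g, Eif2s1 and the cap-binding protein Eif4e (0.74, SE 0.25, edgeR adjusted p = 0.04), and 1 lower, Eif4ebp1, which binds and holds back Eif4e (-1.14, SE 0.38, adjusted p = 0.042). The 3 are 12.5% of the list, beside 12.3% of all genes. Macrophage-like cells had 2 of the 24 higher and 0 lower, neutrophil-like cells 3 and 0 (beside 23.1% of all genes), T cell-like cells 0 and 1, and B cell-like cells 0 and 0. Eif4ebp1 was higher in neutrophil-like cells (2.67, SE 0.33, edgeR adjusted p = 2.3e-07) and macrophage-like cells (1.36, SE 0.32, adjusted p = 0.0023), and lower in T cell-like cells (-1.85, SE 0.53, adjusted p = 0.046). Eif1, which keeps the scan for the start codon accurate, and Eif5 were also higher in neutrophil-like cells (1.31 and 0.76, edgeR adjusted p = 9.5e-05 and 0.014). Of 19 tested elongation factors and other messages with a terminal oligopyrimidine tract, 1 was called in any main class, Npm1, a nucleolar chaperone of ribosome assembly, higher in tumor-like cells (0.95, SE 0.23, edgeR adjusted p = 0.0055), or 5.26% of the list beside 12.3% of all genes. In tumor-like cells, 1 of 7312 genes was higher and 1 lower without the replicate block. At most 1 of the higher calls named here for tumor-like cells thus remained there.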

How the data were processed

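Whole tumors of 3 TH-MYCN mice were profiled. The submitters' processing notes name Cell Ranger 3.1.0, Seurat 3 and 3.1.5 and build mm10. The authors deposited raw UMI counts per gene and barcode, and normalized values that are the natural log of 1 plus an adjusted count, in the cells they kept. The adjusted counts are drawn towards a common depth: in tumor 1 the 90th percentile of a cell's total was 19.16 times the 10th in raw counts of the same genes and 1.84 times in adjusted counts, and 45.1% of cells had more adjusted than raw UMIs. The study also lists ambient RNA and doublets, and the part of each step in these values is not given in the sources used here. As used here, the normalized matrices listed none of the 84 genes, so that all their values come from raw counts. They listed Fau and Rack1.

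Members and lists were chosen with earlier results of these data known. Clustering used Seurat 5.3.0 under R 4.3.3 (2000 variable genes, integration on 30 dimensions, 20 neighbors, resolution 1) after ribosomal protein genes had been taken out. Naming a cluster took 3 or more markers, each seen in 10% of its cells at a level of 2 times or more that of other cells. Clusters of low depth and with none of the markers among their leading genes stayed unnamed. No doublet caller was run here. Classes with 10 or more cells in a tumor gave 27 sums of raw counts, of which 24 sums of 9 classes entered edgeR 4.0.16 (filter on low counts, TMM, quasi-likelihood, Benjamini-Hochberg over all genes, threshold 0.05). Each contrast weighted the other classes equally. Where leaving out a tumor left a class 1 sum, its spread was taken from the remaining classes.

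All classes in a tumor share an animal, so the tumor was a block. Deviations from class means had a median correlation of 0.296 (-0.0285 to 0.66) within a tumor and of -0.195 (-0.595 to 0.361) across tumors. Log2 ratios of CPM used 0.5 added counts. On data with known answers the test missed most genes changed by a log2 of 1, and its share of false calls lay above the threshold. Alternatives were DESeq2 1.42.0, no low-count filter, no block, each tumor left out, resolution 0.5, cells of at least 1000 UMIs and, chosen after seeing the data, total UMI scaling and an unnamed cluster put back into its best-matching class. Named were paralog pairs, stalk proteins and Rpsa, up to 5 called members per contrast and direction that changed alike in every tumor, the 5 highest and 5 lowest members, and Fau and Rack1, outside the rule. Some results that this rule names are not reported here. Other genes named were chosen after their values were seen, or were called in a list.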

Additional observations from a re-analysis of the deposited data

Results flagged for a closer look

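Barcodes that the authors did not keep, which enter no comparison above, also held ribosomal protein UMIs, at 12.3%, 11.7% and 11.7% of their UMIs in tumors 1, 2 and 3, against 19.1%, 21.2% and 21.4% in kept cells. Mitochondrial genes gave 12%, 34.3% and 35.4% of their UMIs, and over nuclear genes alone the shares were 13.9%, 17.8% and 18.1%. The part of the mitochondrial UMIs in the lower shares of tumors 2 and 3 was not tested.

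The 10 symbols left out as pseudogenes by name or as the retrogene Rps27rt took 0.0300%, 0.0213% and 0.0256% of the UMIs of kept cells, above the limit that a count of 0 allows. Relative to the members' UMIs these were 0.157%, 0.1% and 0.120%, and Rps27rt was the largest with 1966, 169 and 567 UMIs.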

How the results depend on the processing

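Of 100 counts of called members under an alternative, 78 stayed within 1.5 times the main count and 22 did not. Every main count was 0 or 1, and counts of 0 that stayed 0 are among the 78. Since the test missed most genes changed by a log2 of 1, the 78 do not measure how stable the results are. In tumor-like cells (0 higher) the count was 5 at resolution 0.5 and 3 with total UMIs, and 0 to 5 over leaving out each tumor. In macrophage-like cells (1 higher) it was 0 with DESeq2, without the replicate block and with total UMIs, 3 without the low-count filter, and 1 to 5 over leaving out each tumor. In neutrophil-like cells the count of higher members (1) was 0 without the replicate block and with total UMIs, and 0 to 1 over leaving out each tumor. The count of lower members there (1) was 4 with DESeq2, 21 with total UMIs, 2 at resolution 0.5 and with cells of at least 1000 UMIs, 0 without the low-count filter, without the replicate block and with the unnamed cluster put back, and 0 to 8 over leaving out each tumor. In B cell-like cells (0 higher) DESeq2 called 2, where 190 of 7312 genes were higher. Of all genes, 2493 of 9723 were higher in tumor-like cells at resolution 0.5, and 1966 of 7312 with total UMIs. In neutrophil-like cells 534 of 7312 were lower with total UMIs and 82 with DESeq2. In macrophage-like cells 2282 of 19369 were higher without the low-count filter. Counts over leaving out a tumor come from fits in which some classes had 1 sum, and stand here without a share of all genes. The share of macrophage-like cells over nuclear UMIs was 18.6%.

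Log2 fold changes in tumor-like cells that turned sign were none of them called. DESeq2 gave -0.28 for Rpl22l1, -0.19 for Rpl22, -0.03 for Rpl3, -0.31 for Rpl36al, -0.22 for Rpl36a and -0.34 for Rpl7, and -0.03 for Rps27l in T cell-like cells. Without the replicate block Rpl36al was -0.07 and Rpl7 -0.05. Total UMIs gave 0.08 for Rpl39, 0.06 for Rpl10 and 0.20 for Rps4x, and resolution 0.5 gave 0.01 for Rpl10 and 0.14 for Rps4x. Rps4x was 0.08 without the low-count filter and 0.02 with the unnamed cluster put back. Over leaving out each tumor, Rpl39 ranged from -0.15 to 0.10, Rpl10 from -0.11 to 0.08, Rps4x from 0.03 to 0.16, and Rps27l in B cell-like cells from -0.67 to 0.24. The cause of these shifts was not tested.

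Calls of edgeR over all genes were 75.1% higher in tumor-like cells, 89.8% with total UMIs and 18.1% with DESeq2. In neutrophil-like cells they were 93.8%, 66.1% and 95.4%, in macrophage-like cells 97.0%, 96.0% and 82.0%, in T cell-like cells 87.6%, 87.9% and 61.0%, and in B cell-like cells 79.6%, 82.3% and 70.4%. The counts behind the normalized values could not be used for the members, since the normalized matrices as used here listed none of the 84 genes. With 3 tumors of unequal depth and sums of as few as 10 cells, small differences between classes were not detectable. The p-values of the main fit, with the tumor as a block, rest on how class differences varied among tumors, over 9 classes together. They cover these 3 mice only.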

Other observations

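Rpl29, a large subunit protein, differed among tumors in nearly every class. It stood at 767, 94.3 and 84.8 CPM in tumor-like cells of tumors 1, 2 and 3, at 591, 63.9 and 66.0 in macrophage-like cells, at 946, 97.5 and 98.3 in T cell-like cells and at 859, 39.9 and 24.7 in B cell-like cells. Tumor 1 was the highest in these 4 classes, and in neutrophil-like cells the values were 113, 52.5 and 112. It was the one member that lay, in all 5 main classes, over 2-fold below the mean of the other tumors in 1 tumor, tumor 2, as did 88 of 7312 genes, or 1.20%. Tumor 3 was also low, at log2 ratios of -2.33, -2.3, -2.4 and -4.13 in tumor-like, macrophage-like, T cell-like and B cell-like cells. Only its neutrophil-like ratio, 0.43, went the other way. That sum held 44646 UMIs, and the B cell-like sums of tumors 2 and 3 held 25033 and 40405. Rpl29 levels in these sums thus rest on few UMIs. The 3 tumors are single mice, so the tumor, the library and the animal cannot be told apart.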
